A study of Homo sapiens with 3 samples.

Results

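The heat shock proteins and their J-protein (DNAJ) co-chaperones were taken from the expression tables by symbol, as the protein-coding genes of GENCODE 29 whose names start with HSPA, HSPB, HSPD, HSPE, HSPH, HSP90 or DNAJ. The rule found 78 genes, of which 76 were among the 48162 genes of the tables; HSPB9 and a second HSPA14 identifier were not analysed here. By the main site of the protein, from textbook knowledge, 42 members belong to the cytosol or nucleus, 14 to the endoplasmic reticulum (ER), 8 to the mitochondrion, and 12 to vesicles, cilia or another or unassigned site. The symbol rule also takes in HSPBP1, a nucleotide exchange factor of HSP70, HSPBAP1, a binding partner of a small heat shock protein, and HSPB11, a subunit of the intraflagellar transport machinery. These are not chaperones of the small heat shock family.

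The samples were 3 cultures of MDA-MB-231, an established human triple-negative breast cancer cell line. One was a control, one was depleted of FoxO3, a forkhead transcription factor that acts downstream of insulin and AKT signalling, and one was depleted of both Geminin, an inhibitor of replication licensing, and FoxO3. Every culture was exposed to lentivirus for 24 h, given fresh medium and collected 72 h after that, and all grew in DMEM with 10% serum. The sources used here give neither the depletion sequences nor the vector that the control received. Each group had 1 library, so the ratios below compare libraries, have no replicate check and carry no p-value.

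HSP70 proteins bind exposed stretches of unfolded proteins and let them go in a cycle driven by ATP. J proteins bring the client and start ATP hydrolysis, nucleotide exchange factors release it, HSP90 takes over clients such as kinases and steroid receptors near their final fold, and small heat shock proteins hold aggregating proteins until HSP70 can act. Heat shock factor HSF1 drives many cytosolic and some mitochondrial members through heat shock elements, and the unfolded protein response drives ER members through ER stress elements. Cancer cells are known for high constant levels of several of these proteins.

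Values are FPKM, that is, deposited fragment numbers per kilobase, divided by each library's total. Whole reads could be recovered from the FPKM, and the totals behind the control, FoxO3-depleted and co-depleted libraries were 14507410, 10760613 and 12267332 reads, so the shallowest had 74.2% of the control's depth. Each gene's reads are those at the shortest length that gave whole numbers. They may be too low by a factor common to the 3 libraries. FOXO3 was at 12.2, 2.79 and 2.94 FPKM in the control, FoxO3-depleted and co-depleted libraries, and GMNN, the Geminin gene, was at 112.3, 112.2 and 37.0 FPKM, in the direction of each label. The mesenchymal marker VIM was at 574 to 607 FPKM, and the hormone receptor genes ESR1 and PGR did not exceed 0.12 FPKM in any library. From the same list of luminal, hormone-receptor or HER2 markers FOXA1 did not exceed 0.0684 FPKM, while GATA3 was at 8.78, 12.1 and 12.6 FPKM and ERBB2 at 38.0, 41.6 and 46.8 FPKM. The summed FPKM of all 5 markers of the line was 2048, 2850 and 2702, with KRT8 and KRT18 over 1.5-fold higher in the FoxO3 depletion and KRT18 in the co-depletion, while SPARC of that list stood near 1 FPKM. Of the 2 epithelial markers EPCAM was at 13.7, 9.80 and 8.95 FPKM and CDH1 at 0.418, 1.02 and 0.584 FPKM. The part of these markers in the members' ratios was not tested. The summed FPKM of 3 leukocyte markers did not exceed 0.191 and that of 3 markers of HEK293-like packaging cells did not exceed 0.0169.

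Across the 3 libraries 57 of the 76 members had a mean of at least 1 FPKM and were analysed, and 19 were below it. All 14 ER members and all 8 mitochondrial members passed, against 29 of 42 cytosolic or nuclear members and 6 of 12 others. Of the 19 members below the minimum, 6 were listed at 0 in every library (DNAJB8, DNAJC25-GNG10, DNAJC5G, HSPB2, HSPB2-C11orf52 and HSPE1-MOB4), and the highest value of the other 13 was 1.09 FPKM, for HSPA2 in the control. Several of them are known as tissue-restricted, such as HSPA2, DNAJB8 and DNAJB13 in testis and HSPB2, HSPB3, HSPB6 and HSPB7 in muscle. HSPA6, an HSP70 that is known to be nearly silent without stress, was at 0.234, 0.492 and 0.616 FPKM. The median level of the analysed members in the control was 29.9 FPKM, beside 19.5 FPKM for all 12649 analysed genes.

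A few chaperones made up most of the members' FPKM. HSPA8, the constitutive cytosolic HSP70, stood highest at 1799, 2178 and 2047 FPKM in the control, FoxO3-depleted and co-depleted libraries. The cytosolic HSP90 genes HSP90AB1 and HSP90AA1 followed. In the ER the order by mean level was HSP90B1, HSPA5 and DNAJC1, and in the mitochondrion HSPD1, HSPA9 and DNAJA3. Among the others, DNAJC5, the cysteine string protein of exocytic vesicles, led with 74.2, 81.1 and 76.5 FPKM. These levels depend on the length the authors divided by. The recovered length, the shortest that gave whole reads, lay within 1 base of the mean transcript length for 38.7% of the genes with several transcripts.

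**Figure D1:**
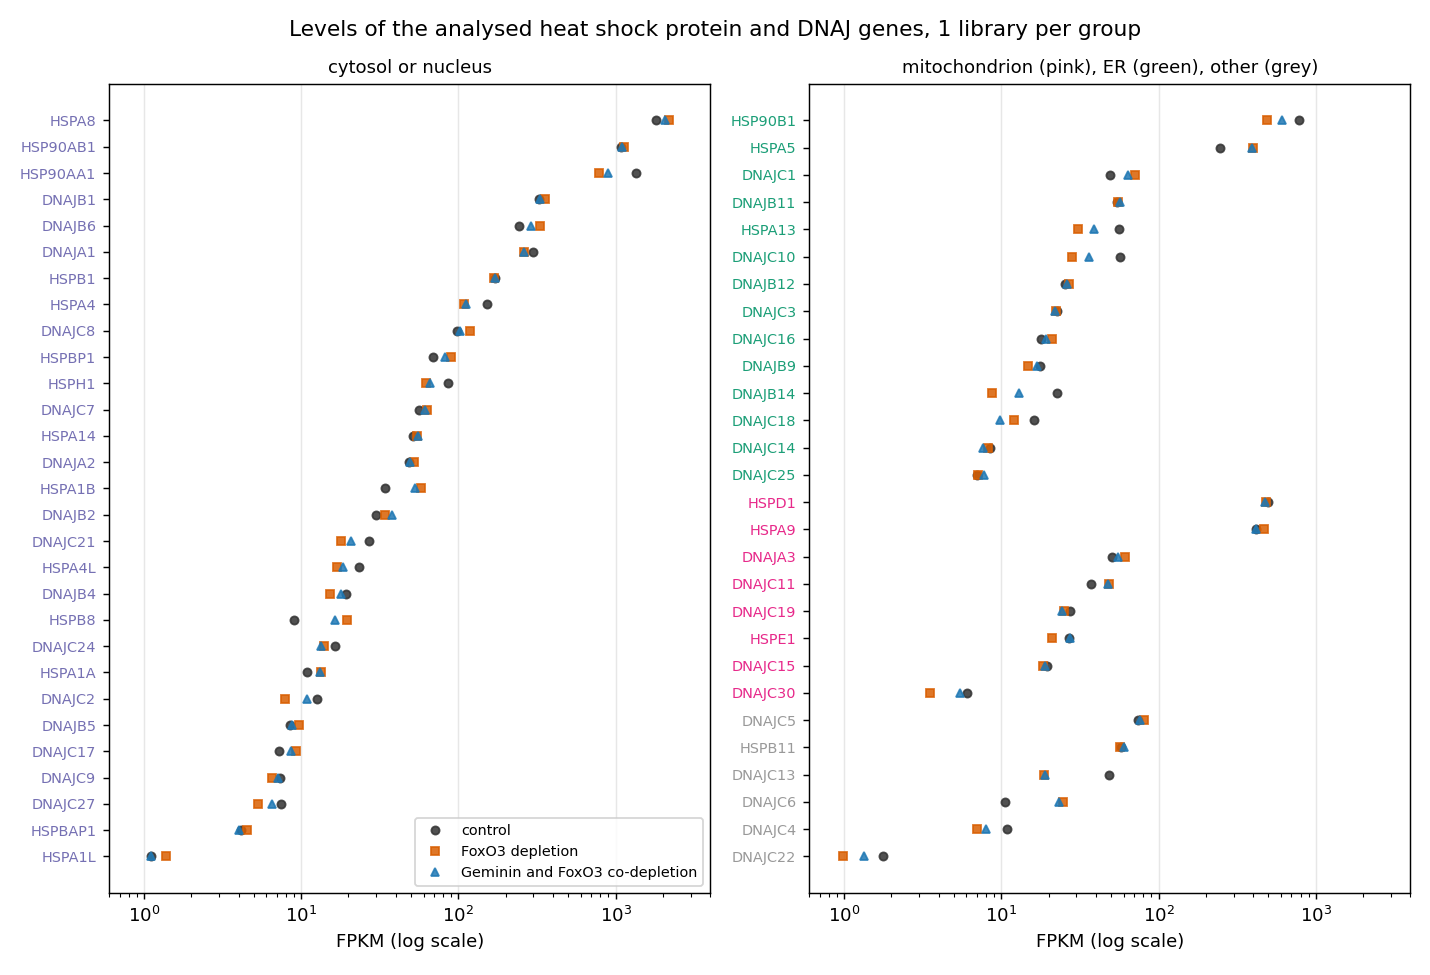
FPKM of the 57 analysed members in each library, on a log axis, grouped by compartment, with 1 point per member and library. HSPA8 stands at 1799 FPKM or more in all 3 libraries, and on this scale HSP90AA1 stands above HSP90AB1 in the control but below it in both depleted libraries.

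As a share of the FPKM of all genes, the members held 1.24%, 1.18% and 1.17% in the control, FoxO3-depleted and co-depleted libraries. As a share of recovered reads they held 1.35%, 1.36% and 1.35%. Within the members' FPKM, cytosolic or nuclear genes held 69.4%, 70.4% and 69.4%, ER genes 15.9%, 14.1% and 15.6%, and mitochondrial genes 12.4%, 13.2% and 12.7%. As a share of the FPKM of all genes, ER genes held 0.197%, 0.166% and 0.183%. Of all recovered reads they held 0.264%, 0.278% and 0.293%. Shares of recovered reads weight each gene by its shortest fitting length, which may be too short by a different factor in each gene. They therefore cannot settle the direction for the ER.

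The FoxO3-depleted library was compared with the control to ask which members differ when FoxO3 is lowered. A member was called where the log2 ratio of FPKM + 1 was past 1.5-fold in size, and each FPKM ratio is given with its 95% exact interval (Clopper-Pearson) from the recovered reads, which covers counting error only. Of the 57 members, 4 were higher (DNAJC6, HSPB8, HSPA1B and HSPA5), beside 4.0% of all analysed genes. There were 8 lower members (DNAJC13, DNAJB14, DNAJC10, HSPA13, HSP90AA1, HSP90B1, DNAJC30 and DNAJC2), beside 16.7% of all analysed genes. In bulk RNA, less RNA of a gene per cell and fewer cells that express it cannot be told apart. Past 2-fold, DNAJC6 and HSPB8 were higher, beside 0.672% of all analysed genes, and DNAJC13 and DNAJB14 lower, beside 5.23%. The median log2 ratio of the members was -0.01, beside -0.07 for all genes.

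By compartment, the FoxO3-depleted library had 2 higher and 2 lower among the 29 cytosolic or nuclear members, 1 higher and 4 lower among the 14 ER members, and 1 lower among the 8 mitochondrial members. Of all analysed genes 4.0% were higher and 16.7% lower. With GC adjustment the counts were 2 higher and 1 lower, 1 and 0, and 0 and 1, beside 5.80% and 8.42% of all genes. Medians on the log2 scale were 0.09 in the cytosol or nucleus, -0.03 in the ER and -0.06 in the mitochondrion, and after GC adjustment 0.20, 0.04 and 0.22. Compartments with so few members are described by these counts and medians and no difference between them was tested.

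The co-depleted library was set against the same control library, so the 2 comparisons share its error and are given side by side. It had 4 higher members, beside 4.02% of all analysed genes, and 5 lower members (DNAJC13, DNAJB14, DNAJC18, DNAJC10 and HSP90AA1), beside 12.3%. The 4 higher members were those of the FoxO3 depletion, and 4 members were lower in both. Past 2-fold, DNAJC6 was higher, beside 0.625% of all analysed genes, and DNAJC13 lower, beside 2.25%. The median of the members was -0.01, beside -0.06 for all genes, and the compartment medians were 0.01 in the cytosol or nucleus, -0.05 in the ER and -0.01 in the mitochondrion. The ER held 3 of these 5 lower members, beside 4 of the 8 in the FoxO3 depletion.

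**Figure D2:**
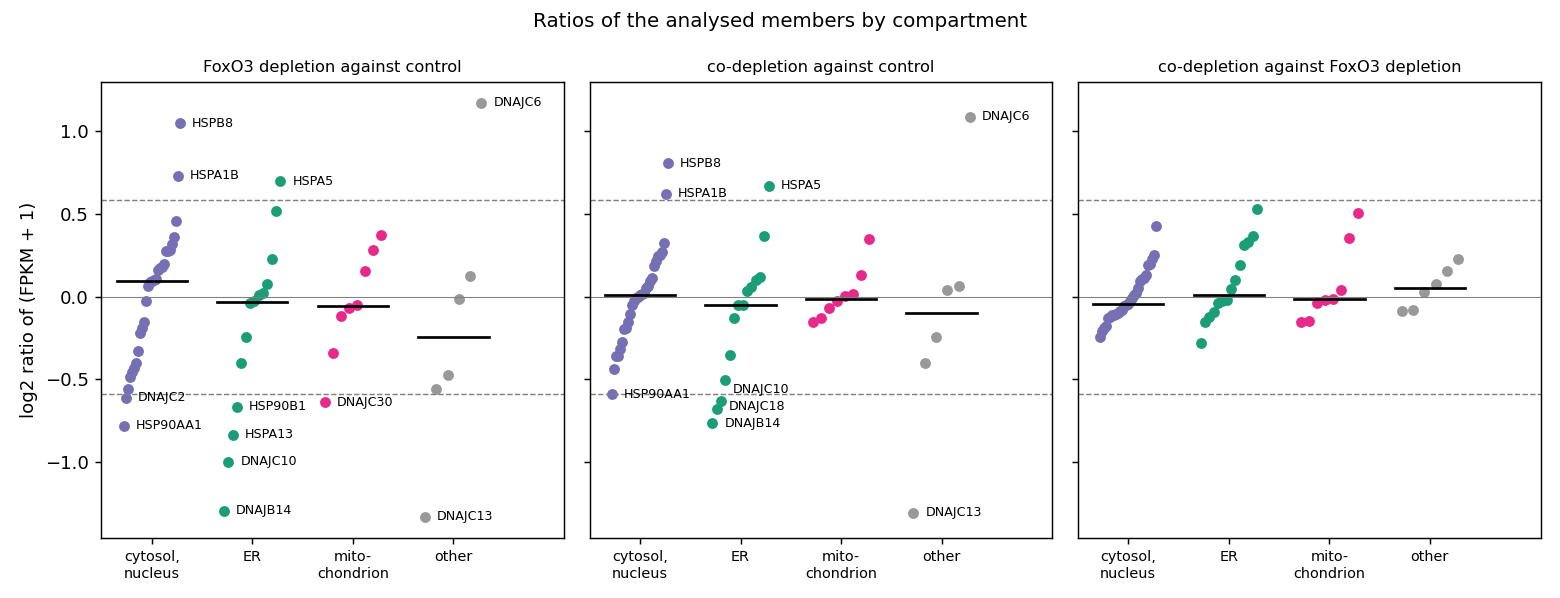
Log2 ratio of FPKM + 1 for the 57 analysed members in each of the 3 comparisons, grouped by compartment, with 1 point per member and a bar at each median. Dashed lines mark 1.5-fold. DNAJC6, HSPB8, HSPA1B and HSPA5 lie above the upper line in both comparisons with the control, and no member lies past a line in the third panel.

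In the ER, the 2 members with the highest FPKM stood on opposite sides of the control. HSPA5 (BiP), the HSP70 of the ER lumen, stood at 246 FPKM in the control library, at 399 with FoxO3 depleted and at 391 with both depleted. Both depleted libraries were above the control, with FPKM ratios of 1.62 (95% interval 1.58 to 1.66) and 1.59 (1.56 to 1.62). HSP90B1 (GRP94), the HSP90 of the ER lumen, was at 779.8, 491 and 610.1 FPKM. Both depleted libraries were below the control, at ratios of 0.629 (0.610 to 0.649) and 0.782 (0.762 to 0.804), of which the second was inside 1.5-fold. Its GC-adjusted log2 ratio in the FoxO3 depletion was -0.41, also inside 1.5-fold, and that of HSPA5 was 0.74. Within each library the FPKM of HSPA5 was 0.315 of that of HSP90B1 in the control library, and 0.813 and 0.641 of it in the FoxO3-depleted and co-depleted libraries.

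Both genes are textbook targets of the unfolded protein response, and they were the 2 members whose promoter held the ER stress element (CCAAT, any 9 bases, CCACG) on either strand. Promoters ran from 250 bases before to 50 after each RefSeq start (GRCh38.p14), and 0.0769% of all 35116 promoters held the element. It is shown because the 2 genes that share it stood on opposite sides of the control. The windows are written 5′ to 3′ along the gene with the element in capitals. The last window holds it on the opposite strand, as the reverse complement.
HSPA5, chr9:125241344-125241459, minus strand: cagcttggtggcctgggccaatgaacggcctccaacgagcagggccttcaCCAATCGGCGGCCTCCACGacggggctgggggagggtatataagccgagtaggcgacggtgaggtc
HSP90B1, chr12:103930211-103930239, plus strand: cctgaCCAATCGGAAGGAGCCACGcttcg
HSP90B1, chr12:103930316-103930344, plus strand: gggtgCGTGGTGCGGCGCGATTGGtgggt

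J proteins and an HSP70 relative made up the rest of the lower members there. DNAJC10 (ERdj5), a disulfide reductase that prepares misfolded proteins for export, was at 56.8, 28 and 36.3 FPKM in the control, FoxO3-depleted and co-depleted libraries, with log2 ratios of -1.0 and -0.63. HSPA13 (STCH), a microsome-associated HSP70 relative, was at 55.8, 30.9 and 39.1 FPKM, with log2 ratios of -0.83 and -0.50. DNAJB14, a membrane J protein whose J domain faces the cytosol, was at 22.7, 8.67 and 13.0 FPKM, with log2 ratios of -1.29 and -0.76. For these 3 genes the FoxO3-depleted library was the lowest of the 3, and the co-depleted library lay between it and the control. They also had the 3 lowest transcript GC contents among ER members, 37.5%, 36.6% and 34.9%, and after GC adjustment their log2 ratios in the FoxO3 depletion were -0.23, -0.05 and -0.50.

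DNAJC18, a further membrane J protein, was at 16.3, 12.1 and 9.78 FPKM and passed 1.5-fold in the co-depletion, at a log2 ratio of -0.68. It was the only lower member of the ER in which the co-depleted library was the lowest of the 3. DNAJC1 (ERdj1), a membrane J protein that binds ribosomes, was above the control in both depleted libraries without passing 1.5-fold, at 49.4, 71.1 and 63.8 FPKM. The other unfolded protein response targets among the J proteins stayed near the control: DNAJB9 (ERdj4) had log2 ratios of -0.24 and -0.05, DNAJB11 (ERdj3) of 0.01 and 0.06, and DNAJC3 (P58IPK) of -0.03 and -0.05. Their GC-adjusted log2 ratios in the FoxO3 depletion were 0.06, 0.23 and 0.48. DNAJB12, a close relative of DNAJB14 with the same place in the membrane, was at 25.3, 26.8 and 26 FPKM, and its transcripts have a GC content of 55.6%. The membrane J proteins DNAJC14, DNAJC16 and DNAJC25 had log2 ratios of -0.04, 0.23 and 0.02 in the FoxO3 depletion, and DNAJC14 shared 53.1% of its windows with overlapping genes.

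In the cytosol, the pair of HSP90 genes parted. HSP90AA1, the stress-inducible HSP90 alpha, stood at 1346 FPKM in the control library, at 783 with FoxO3 depleted and at 894 with both depleted. Both depleted libraries were below the control, at FPKM ratios of 0.582 (0.569 to 0.595) and 0.664 (0.651 to 0.678). The second is only just past 1.5-fold, at a log2 ratio of -0.59. HSP90AB1, the constitutive HSP90 beta, was at 1075, 1125 and 1092 FPKM, with ratios of 1.05 (1.03 to 1.06) and 1.02 (1.001 to 1.03). The FPKM of HSP90AA1 was 1.25 times that of HSP90AB1 in the control and 0.697 and 0.819 times in the depleted libraries, so the order of the 2 genes turned on the FPKM scale. That order rests on the lengths divided by, recovered as 1294 bases for HSP90AA1 and 2608 for HSP90AB1. In recovered reads HSP90AB1 was above HSP90AA1 in all 3 libraries, with 40683 against 25261, 31559 against 10907 and 34944 against 14194. The reads of each gene may be too low by a factor of its own, so their order in reads is not settled either. The lower ratio of HSP90AA1 to HSP90AB1 in the depleted libraries does not depend on the lengths. HSP90AA1 shared 14% and HSP90AB1 16.6% of their 50-base windows with other genes, among them HSP90AA2P, HSP90AB2P and HSP90AB3P, and the assignment of reads from such stretches is uncertain.

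A heat shock element of 3 units (GAA, any 2 bases, TTC, any 2 bases, GAA, or the same with GAA and TTC exchanged, both strands) stood in the promoter of 7 members (DNAJA1, DNAJB6, HSP90AA1, HSP90AB1, HSPA6, HSPA8 and HSPD1), or 7.95% of the 88 member promoters beside 0.490% of all promoters. Both HSP90 genes and HSPA8 held it, and the windows show it in capitals for 3 abundant genes with unlike ratios.
HSP90AA1, chr14:102087112-102087140, minus strand: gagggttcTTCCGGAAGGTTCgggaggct
HSP90AB1, chr6:44247809-44247865, plus strand: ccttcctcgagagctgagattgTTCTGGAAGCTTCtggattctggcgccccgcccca
HSPA8, chr11:123062171-123062199, minus strand: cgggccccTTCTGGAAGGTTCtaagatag
Of the 6 analysed members with this element, 0 were higher and 1, HSP90AA1, was lower in each comparison with the control. The shares of all analysed genes were 4.0% higher and 16.7% lower in the FoxO3 depletion and 4.02% and 12.3% in the co-depletion. The median log2 ratios of the 6 members were 0.01 and -0.02.

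Among cytosolic HSP70 genes, the inducible HSPA1B differed more than the constitutive HSPA8. HSPA1B was at 34.3, 57.6 and 53.3 FPKM, and both depleted libraries were above the control at ratios of 1.68 (1.55 to 1.82) and 1.55 (1.43 to 1.68). HSPA1A, its near-identical neighbour, was at 10.9, 13.4 and 13.1 FPKM and was not called. HSPA1B shares 73.5% and HSPA1A 71.3% of its windows with another gene, mainly the other of the pair, so how their reads were divided is uncertain. Their summed FPKM was 45.2, 71.0 and 66.4. The sum was past 1.5-fold in the FoxO3 depletion but inside it in the co-depletion. HSPA8 had ratios of 1.21 (1.19 to 1.23) and 1.14 (1.12 to 1.16), above 1 but inside 1.5-fold. HSPA1L, a spermatid HSP70 of the same gene cluster, was at 1.12, 1.38 and 1.11 FPKM on at most 37 recovered reads.

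The HSP110 family, nucleotide exchange factors related to HSP70, lay below the control without passing 1.5-fold. HSPH1 was at 85.3, 61.9 and 66.2 FPKM, HSPA4 had log2 ratios of -0.48 and -0.43, and HSPA4L of -0.43 and -0.32. Their transcripts are poor in GC, at 39.3%, 42.2% and 39.3%, and the GC-adjusted log2 ratios in the FoxO3 depletion were 0.18, -0.18 and 0.20. The unrelated exchange factor HSPBP1 was at 69.4, 89.2 and 82.4 FPKM, above the control in both depleted libraries but inside 1.5-fold.

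Of the small heat shock proteins only HSPB1 and HSPB8 were analysed. HSPB1 (HSP27), the abundant one, was at 171, 168 and 170.5 FPKM, with ratios of 0.980 (0.921 to 1.04) and 0.996 (0.939 to 1.06). HSPB8 (HSP22), which works with the HSP70 partner BAG3 in selective autophagy of damaged proteins, was at 8.96, 19.6 and 16.4 FPKM on 139, 225 and 215 reads. Its ratios were 2.18 (1.76 to 2.72) and 1.83 (1.47 to 2.28), the largest higher values among the analysed cytosolic or nuclear members. HSPB8 and HSPA1B, the 2 cytosolic members that were higher, each hold a 2-unit heat shock element, GAANNTTC or TTCNNGAA on either strand, shown in capitals.
HSPB8, chr12:119178832-119178861, plus strand: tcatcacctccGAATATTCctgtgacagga
HSPA1B, chr6:31827583-31827690, plus strand: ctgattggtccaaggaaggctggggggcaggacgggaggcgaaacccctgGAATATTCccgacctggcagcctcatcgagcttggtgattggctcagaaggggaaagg
This shorter element is part of every 3-unit element and was common: 22 of the 67 members with a RefSeq promoter held it. Counted by promoter, 23 of 88 member promoters (26.1%) held it, beside 13.5% of all promoters. Among the 17 analysed members with it, 3 were higher and 1 was lower in each comparison with the control, beside 4.0% and 16.7% of all analysed genes in the FoxO3 depletion and 4.02% and 12.3% in the co-depletion.

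**Figure D3:**
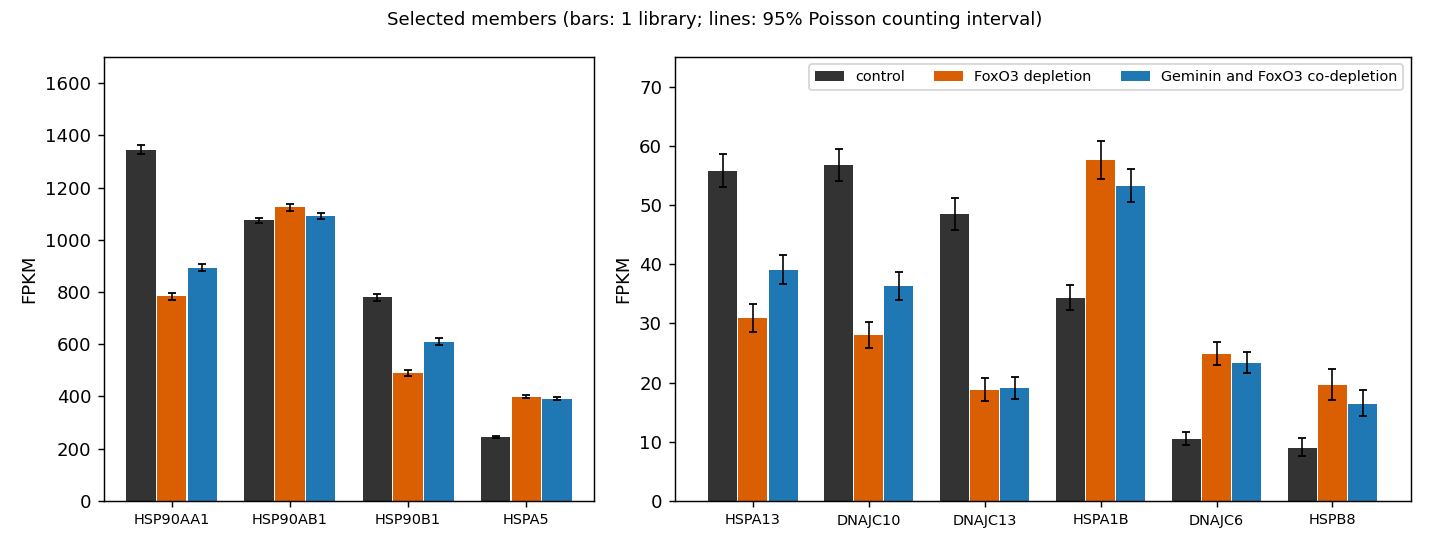
FPKM in each library for selected members, with 1 bar per library and 95% Poisson counting intervals as error lines. The left panel shows abundant members and the right panel less abundant ones, on linear axes from 0. HSPA5, HSPA1B, HSPB8 and DNAJC6 are higher in both depleted libraries than in the control, HSP90AA1 and DNAJC13 are lower, and HSP90AB1 stays between 1075 and 1125 FPKM.

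The J proteins that serve cytosolic HSP70 differed little. DNAJB1 (HSP40), the classic stress-inducible partner, was at 327, 353 and 329.9 FPKM. DNAJA1, a general partner of HSPA8, had log2 ratios of -0.19 and -0.20, and DNAJA2 of 0.10 and 0.01. DNAJB6, which suppresses aggregation of polyglutamine proteins, was above the control in both depleted libraries at 242, 332 and 291 FPKM, inside 1.5-fold. The ribosome-bound J protein DNAJC2 (MPP11) was called lower in the FoxO3 depletion, at 12.6, 7.87 and 10.9 FPKM and a log2 ratio of -0.61. Its partner HSPA14 was at 51.3, 54.6 and 54.9 FPKM. DNAJC21, a factor of ribosome biogenesis, lay just inside the limit with a log2 ratio of -0.56 in the FoxO3 depletion. After GC adjustment DNAJC2 and DNAJC21 were at -0.11 and -0.12.

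The remaining J proteins of the cytosol and nucleus were not called, and several have jobs beyond folding. DNAJC8, a splicing-associated protein, was at 98.3, 119 and 103 FPKM. DNAJC7 (TPR2), which can bind HSP70 and HSP90 at once, had log2 ratios of 0.16 and 0.11. DNAJB2, a ubiquitin-binding J protein best known from neurons, was at 29.9, 34.4 and 37.7 FPKM and was the only one of this group whose highest library was the co-depletion. DNAJC9, which also chaperones histone H3, was at 7.38, 6.53 and 7.09 FPKM. DNAJC24, a factor of diphthamide synthesis, had log2 ratios of -0.22 and -0.27 before GC adjustment and 0.54 and 0.28 after it, at a transcript GC content of 37.7%. DNAJB4, DNAJB5, DNAJC17 and DNAJC27 had log2 ratios of -0.33, 0.18, 0.32 and -0.40 in the FoxO3 depletion. DNAJC17 had 39 to 41 recovered reads per library.

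The abundant mitochondrial chaperones differed little between the libraries. HSPD1 (HSP60), the chaperonin of the matrix, was at 499, 481 and 476 FPKM. HSPA9 (mortalin), the matrix HSP70, was at 418, 465 and 418 FPKM, and its J protein DNAJA3 (TID1) at 50.4, 61.5 and 55.4 FPKM. HSPE1 (HSP10), the lid of the chaperonin, was at 26.9, 21.1 and 27.2 FPKM, so that the FPKM of HSPD1 was 18.5, 22.8 and 17.5 times that of its partner. Both share windows with other genes, 18.4% for HSPD1 and 22.7% for HSPE1. The J proteins of the import motor at the inner membrane, DNAJC19 (TIM14) and DNAJC15, had log2 ratios of -0.12 and -0.07 in the FoxO3 depletion. DNAJC11, a component linked to the cristae complex, was at 37.4, 48.5 and 47.9 FPKM and shared 25.8% of its windows with other genes. The 1 called member was DNAJC30, which binds the ATP synthase, at 6.06, 3.54 and 5.44 FPKM on 104, 45 and 79 recovered reads. DNAJC30 shared 13.5% of its windows with other genes. It was called lower in the FoxO3 depletion, with a ratio of 0.583 (0.402 to 0.835), and not in the co-depletion, with 0.898 (0.662 to 1.22). The ratio between the 2 depleted libraries was 1.54 (1.05 to 2.27).

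On the log2 scale of FPKM + 1, the most distant of all 57 members in each direction, in both comparisons with the control, belonged to 2 J proteins of clathrin and endosome traffic. DNAJC6 (auxilin), which recruits HSPA8 to strip clathrin from vesicles, was at 10.5, 24.8 and 23.4 FPKM, at ratios of 2.36 (2.07 to 2.71) and 2.22 (1.95 to 2.54). DNAJC13 (RME-8), which recruits HSPA8 to endosomes with the retromer, was at 48.5, 18.7 and 19.0 FPKM, at ratios of 0.385 (0.342 to 0.433) and 0.392 (0.351 to 0.438). In both genes the 2 depleted libraries lay close together and apart from the control. DNAJC4 lay just inside 1.5-fold in the FoxO3 depletion, at 10.8, 7.04 and 7.94 FPKM and a log2 ratio of -0.56. HSPB11, the intraflagellar transport subunit, was at 57.6, 57.1 and 60.3 FPKM.

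DNAJC6 and HSP90AA1, 1 higher and 1 lower, were also the 2 analysed members whose promoter held the forkhead core GTAAACA on either strand. FoxO proteins bind this core, so the windows are shown, with the reverse complement in capitals.
DNAJC6, chr1:65264684-65264712, plus strand: tttggaatttgTGTTTACgtctgccttca
HSP90AA1, chr14:102139750-102139811, minus strand: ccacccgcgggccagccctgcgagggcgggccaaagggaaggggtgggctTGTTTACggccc
DNAJC12, below the minimum level, was the other member with it. The share of member promoters with the core was 3.41%, beside 3.42% of all promoters, so the members did not carry it more often. The HSP90AA1 window lies at another RefSeq start of the gene than its heat shock element.

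The co-depleted library was compared with the FoxO3-depleted library to ask what lowering Geminin as well adds. On the scale of FPKM + 1, no member was past 1.5-fold higher, beside 1.35% of all analysed genes. No member was past it lower, beside 0.617%. The FPKM ratio of DNAJC30 without the added 1 was 1.54 (1.05 to 2.27). The highest log2 ratios were 0.53 for DNAJB14, 0.51 for DNAJC30 and 0.42 for DNAJC2, and the lowest was -0.28 for DNAJC18. HSP90B1 was at a ratio of 1.24 (1.20 to 1.28) and HSPA5 at 0.981 (0.961 to 1.002). The median of the members was -0.02, beside 0.03 for all genes.

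The ratios against the control moved with base composition. Across the 57 members the log2 ratio had a Spearman rho with transcript GC content of 0.55 and 0.52 in the FoxO3 and co-depletion, a description over genes measured in the same 2 libraries. Over all 12649 analysed genes the values were 0.41 and 0.44. The members had a median GC content of 45%, beside 49% for all genes, and 3 of the lower ER members (DNAJB14, HSPA13 and DNAJC10) lay at the GC-poor end. After the running median over GC content was subtracted, the FoxO3 depletion kept all 4 higher members and had 4 lower ones (DNAJC13, HSP90AA1, DNAJC30 and DNAJC4), beside 5.80% and 8.42% of all genes. No ER member was then lower. In the co-depletion DNAJC6, HSPB8 and HSPA5 were higher and DNAJC13 and DNAJC18 lower after the adjustment, beside 4.47% and 5.68% of all genes, and HSPA1B and HSP90AA1 were at 0.53 and -0.49 on the log2 scale. The GC-adjusted medians of the members were 0.18 and 0.15 in the 2 comparisons. DNAJC6, HSPB8, HSPA5 and DNAJC13 were thus called in both comparisons with and without the adjustment. The part that base composition had in the ratios was not tested beyond these adjusted values.

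**Figure D4:**
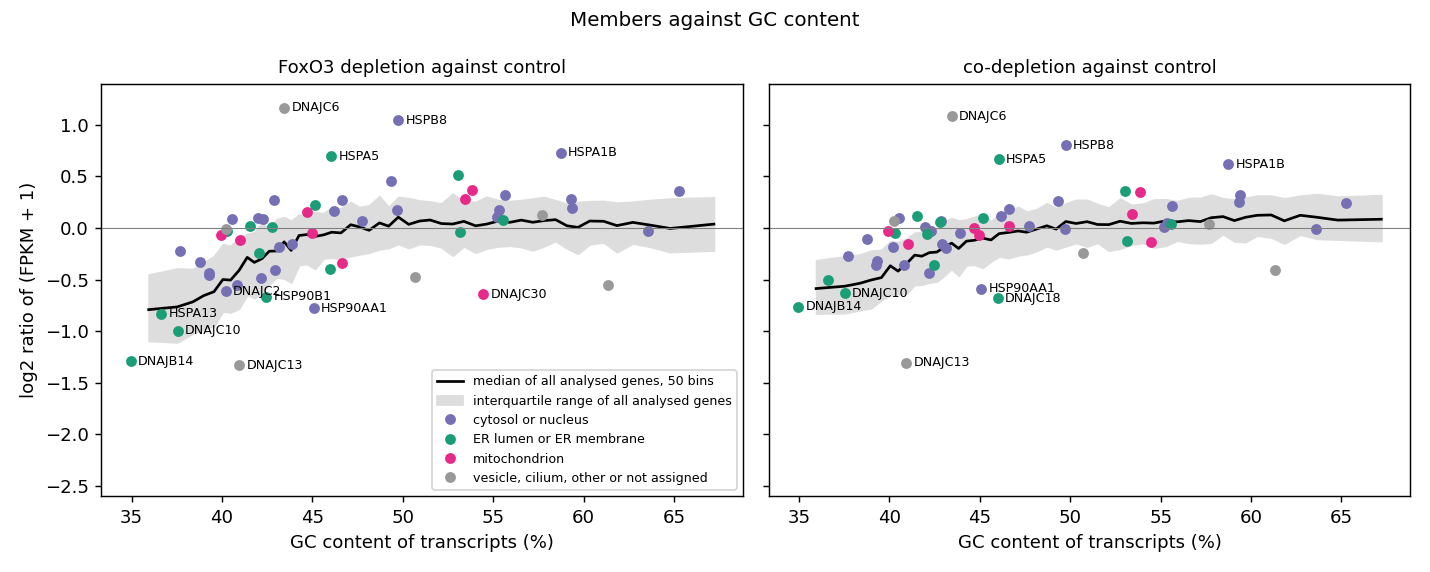
Log2 ratio of FPKM + 1 against transcript GC content for the 57 analysed members, in both comparisons with the control, with the median and the interquartile range of all analysed genes in 50 GC bins as a line and a band. HSPA13, DNAJC10 and DNAJB14 lie at the GC-poor end where the line itself is below 0, and DNAJC6, HSPB8, HSPA5 and DNAJC13 lie outside the band in both panels.

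Other genes of the same pathways were taken from lists, with the same 1.5-fold rule, which called 4.0% of all analysed genes higher and 16.7% lower in the FoxO3 depletion, and 4.02% and 12.3% in the co-depletion. Of 20 ER folding factors, 2 were higher in both comparisons with the control, and SEC63, the J protein of the translocon, was lower in the FoxO3 depletion at 74.8, 46.2 and 51.1 FPKM. The median log2 ratios were 0.22 and 0.19, beside the -0.07 and -0.06 of all genes. The 2 higher genes work with HSPA5: HYOU1 (GRP170), its exchange factor, was at 232.2, 388.7 and 403.7 FPKM, and SDF2L1, which binds it with DNAJB11, was at 24.9, 44.0 and 38.5 FPKM. Among 7 sensors and factors of the unfolded protein response, DDIT3 (CHOP) was higher in both, at 4.59, 7.58 and 7.61 FPKM, and 0 were lower. The median of these 7 genes was 0.46 in both comparisons.

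Of the 3 heat shock factors analysed (HSF1, HSF2 and HSF4) and their binding protein HSBP1, 0 were called. HSF1, the main activator of the heat shock response, was at 90.6, 126.5 and 121.2 FPKM and HSF2 at 12.2, 9.55 and 8.63 FPKM. Among 11 exchange and helper factors of HSP70, which again include HYOU1, BAG4 was lower in the FoxO3 depletion at 18.3, 11.1 and 12.1 FPKM. Among 18 HSP90 co-chaperones RPAP3, a scaffold for the assembly of RNA polymerases, was lower in both comparisons, at 28.9, 10.4 and 12.4 FPKM. After GC adjustment the log2 ratios of RPAP3 were -0.61 and -0.58 in the 2 comparisons with the control, the second inside 1.5-fold, and that of SEC63 was -0.03 and -0.04. None of 14 subunits of the cytosolic chaperonin and prefoldin and none of 12 mitochondrial quality control genes was called in either comparison. Median log2 ratios in the FoxO3 depletion were 0.19 for the chaperonin and prefoldin list, 0.10 for the mitochondrial list, 0.09 for HSP90 co-chaperones, 0.05 for HSP70 helpers and -0.08 for the heat shock factors with HSBP1. No gene of these lists was called between the co-depletion and the FoxO3 depletion.

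The fewest recovered reads behind an analysed member were 15, for DNAJC22 in the FoxO3 depletion, and 9 analysed members had under 100 recovered reads in some library. Recovered reads may be too low, so at most 9 members were under 100. Because FPKM is a share of each library, a member's ratio is relative to all other RNA in it.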

How the data were processed

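Total RNA of 3 MDA-MB-231 cultures was sequenced, 1 library per group. Libraries were made with an Illumina TruSeq kit, per the labels' protocols, and the submitters' processing notes name TopHat2 2.0.9, an aligner of spliced reads. The deposited values are FPKM per Ensembl gene as the authors made them; the counter, genome build, annotation and use of strand are not stated in the sources used here. How reads were divided between overlapping genes, or between a gene and its near-identical copy, is thus unknown.

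Groups came from the sample titles read with the series title. The members, compartments and pathway lists were chosen with earlier results of these data known. Symbols, transcript GC content and 50-base windows came from GENCODE 29, which matched 45342 of 48162 gene IDs. Ratios are log2 of (FPKM + 1) over (FPKM + 1), for genes with a mean of at least 1 FPKM, and a gene was called past 1.5-fold. Values in all libraries were given for members called in any comparison and the 3 highest of each compartment; other members were named for their role after their values were seen. Reads were recovered as whole FPKM times library total times transcript length, for lengths from 200 to 30000 bases. The shortest fitting length was kept, for DNAJB9 607 bases beside a mean transcript length of 1214. A gene's reads are thus known in proportion between libraries, and their number may be too low. Whole reads were found for 99.99% of 20591 genes and 0.000% of 2000 random values. GC adjustment subtracted a running median over 50 bins. The calculations were tested on simulated data. Promoters came from RefSeq (GRCh38.p14), where 67 of 76 members matched. Python 3.11.15, numpy 2.4.6, pandas 2.3.3, scipy 1.17.1 and matplotlib 3.10.9 were used. Alternatives covered the pseudocount, minimum level, scaling, GC, length, fold and shared reads. Protein features were not analysed here, and the list of J proteins under other symbols is not reported here.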

Additional observations from a re-analysis of the deposited data

How the results depend on the processing

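GC adjustment, alone or with length, moved the most values. The members' median log2 ratio went to 0.18 and 0.15 in the FoxO3 and co-depletion comparisons with the control, the cytosolic or nuclear median to 0.20 and 0.17, the mitochondrial median from -0.06 and -0.01 to 0.22 and 0.10, and the ER median to 0.04 and 0.14. With GC and length adjusted together, they were 0.17 and 0.14 for all members, 0.19 and 0.18 for cytosolic or nuclear, 0.23 and 0.12 for mitochondrial, and 0.03 and 0.15 for ER members. Lower members then numbered 4 in the FoxO3 and 2 in the co-depletion, as with GC alone, beside 8.29% and 5.48% of all genes. HSPA13 turned from -0.83 to 0.012 in the FoxO3 depletion. Rescaling each library by the median ratio left 5 and 3 lower members, beside 14.2% and 10.3% of all genes. It put the members' median in the co-depletion at 0.057. At 2-fold, 2 members were higher and 2 lower in the FoxO3 depletion, beside 0.672% and 5.23% of all genes. In the co-depletion 1 was higher and 1 lower, beside 0.625% and 2.25%. At 3-fold 0 were called in every case, beside at most 0.395% of all genes in any comparison and direction. A pseudocount of 0.1 FPKM gave 1 higher member between the co-depletion and the FoxO3 depletion, beside 3.57% of all genes. The cause of these moves was not tested. As shares of recovered reads, an alternative chosen after seeing the data, the members held 1.35%, 1.36% and 1.35%. These shares rest on the shortest fitting length of each gene. Leaving out members that share reads left 43 members. Of these, 3 were higher and 6 lower in the FoxO3 depletion, beside 4.0% and 16.7% of all genes. In the co-depletion 3 were higher and 4 lower, beside 4.02% and 12.3%. The FoxO3 depletion's median was then -0.24 in the ER and 0.04 in the mitochondrion. TPM scaling and a pseudocount of 0.5 or 0.1 FPKM each gave 10 lower members in the FoxO3 depletion. The shares of all genes that were lower were then 19.3%, 18.5% and 20.2%. A minimum of 5 FPKM, none, or 20 reads (also chosen after seeing the data) gave the same counts as the main setting in both comparisons with the control. The shares of all genes were then 4.03%, 2.55% and 3.75% higher and 15%, 10.1% and 16.6% lower in the FoxO3 depletion. In the co-depletion they were 3.96%, 2.53% and 3.77% higher and 11.3%, 7.58% and 12.1% lower. Medians near 0 changed sign under some of the alternative settings.

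Depth limits weak members most, since 9 had under 100 recovered reads in some library. No paired analysis was possible because each group has 1 library, and for the same reason leaving out replicates was not run. Intervals cover counting error only, not the spread between cultures.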

Other observations

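Pseudogenes that carry a member prefix gave almost no signal. The tables listed 93 of them, none reached a mean of 1 FPKM and 65 were at 0 in all 3 libraries. Their summed FPKM was 2.93, 2.95 and 3.03 in the control, FoxO3-depleted and co-depleted libraries. The highest was HSPD1P11 at 0.61, 0.49 and 0.72 FPKM, beside 498.8, 481 and 476 FPKM for its parent HSPD1.

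Chaperones that work as partners were also set against each other within each library. The FPKM of HSPA8 was 21.1 times that of its exchange factor HSPH1 in the control library, and 35.2 and 30.9 times in the FoxO3-depleted and co-depleted libraries. In the mitochondrion the FPKM of HSPA9 was 0.837, 0.967 and 0.878 times that of HSPD1. HSPH1 is poorer in GC than HSPA8, at 39.3% against 46.6%, and the part of base composition in the first of these ratios was not tested.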
